A study of Mus musculus with 2 samples.

Results

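The genes of respiratory complex I whose array name starts with *Nduf* were compared between 1 culture transfected with siRNA-NC and 1 transfected with siRNA-*Ppp2r5d*. The rule took every probe that was not a control and carried such a name, which gave 45 genes of 37074 gene names on the array, measured by 70 probes. Of these genes, 36 encode subunits of the complex, 7 are *Ndufaf* assembly factors and 2 belong to the *Ndufa4* family. All 45 names are symbols in the RefSeq gene table of assembly GRCm38.

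Both cultures were MCMs, mouse cardiomyocytes that were bought and passaged, kept in DMEM with 2% FBS. The negative control siRNA-NC or the siRNA against *Ppp2r5d*, the B′ delta regulatory subunit of protein phosphatase 2A, was brought in with a lipid reagent. Glucose-free medium was given 48 h later to both cultures, and total RNA was taken at 64 h for 1 one-colour Agilent array per condition. The sample labels name no isoproterenol or other stimulus, so both levels below were measured after glucose withdrawal.

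Complex I oxidises NADH in the mitochondrial matrix, passes the electrons to ubiquinone and pumps protons across the inner membrane. Its core subunits carry the flavin, the iron-sulfur clusters, the quinone site and the proton channels, and the accessory subunits surround and stabilise them. Assembly factors help to build the modules and leave before the complex is finished, and the heart, which draws most of its ATP from respiration, is rich in the complex.

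Since each condition had 1 array, the differences have no replicate check and no test was run. All fold changes are siRNA-*Ppp2r5d* over siRNA-NC on the log2 scale, with each array set to its 75th percentile, unless another scaling is named. A gene was the mean over its probes that the scanner software called well above background on both arrays. The spread between spots of the same probe gave a median SD of 0.035 in log2 fold change over 268 probes with an intensity above 1000, and of 0.21 over 5 probes with an intensity of at most 100. The error between cultures is not part of these SDs. Intensities of different probes are not set against each other as amounts of RNA, and only say how far a probe lay above background.

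The target of the siRNA, *Ppp2r5d*, went from an intensity of 4701 with siRNA-NC to 676 after knockdown, a log2 fold change of -2.60. Of 14 cardiomyocyte markers, both arrays detected 7 above background and 1 array alone detected 3. The 7 had a median log2 fold change of 0.42, 5 of them above 0, and 3 were past 1.5-fold higher, *Myl3* at 0.90, *Ttn* at 0.89 and *Nppa* at 0.62. *Actn2*, *Myl2*, *Myl7* and *Pln*, which encode defining proteins of the sarcomere and the calcium store, were above background on neither array. Of 8 fibroblast markers 7 were above background on both arrays, with a median log2 fold change of -0.049. Past 1.5-fold higher were 2 of them, *Lum* at 1.08 and *Pdgfra* at 0.63. All 5 of 5 smooth muscle markers were above background on both arrays, with a median of -0.020. They ranged from -0.38 for *Myh11* to 2.41 for *Cnn1*, and 2 were past 1.5-fold higher, *Cnn1* and *Tagln* at 0.85. Of 5 macrophage markers, 4 were above background on both arrays, with a median log2 fold change of -0.37. Past 1.5-fold lower were 2 of them, *Cd68* at -0.77 and *Lyz2* at -0.68. Beside these counts of markers, 9.27% of 21701 genes were past 1.5-fold in either direction. The arrays cannot tell fewer cells of a type from less RNA per cell, and the part of these markers in the values below was not tested.

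Sequences are shown for 2 probes, of the assembly factors with the lowest and the highest gene value. Each is a RefSeq mRNA probe of 60 bases whose interval on mouse build mm9 is longer than the probe, so that its bases lie in more than 1 block of the genome. They are printed 5′ to 3′ in lower case as the files give them, and no base is singled out.
*Ndufaf3*: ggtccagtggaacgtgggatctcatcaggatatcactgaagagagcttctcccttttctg
*Ndufaf5*: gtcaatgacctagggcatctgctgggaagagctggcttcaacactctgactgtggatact
The *Ndufaf3* probe lies on the minus strand of chr9:108468692-108468899 and the *Ndufaf5* probe on the plus strand of chr2:140014595-140019324. Which exons these blocks belong to was not analysed here.

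Complex I transcripts differed little between the arrays. All 45 genes were measured on both arrays, and 42 had a log2 fold change within 0.3 of 0. Their median was 0.098 and the median of all 20350 genes measured on both arrays was 0.026. Past 1.5-fold there was 1 of 45 genes, *Ndufs3*, in a comparison where 9.27% of 21701 genes were past that fold, and past 2-fold there were 0 of 45 beside 2.53%. Above 0 were 34 of 45 genes, beside 54.2% of all genes, a count that was 22 under quantile normalization and 8 or 6 under scaling to spike-in probes. Each sign given here therefore holds for the scaling it is named with.

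**Figure D1:**
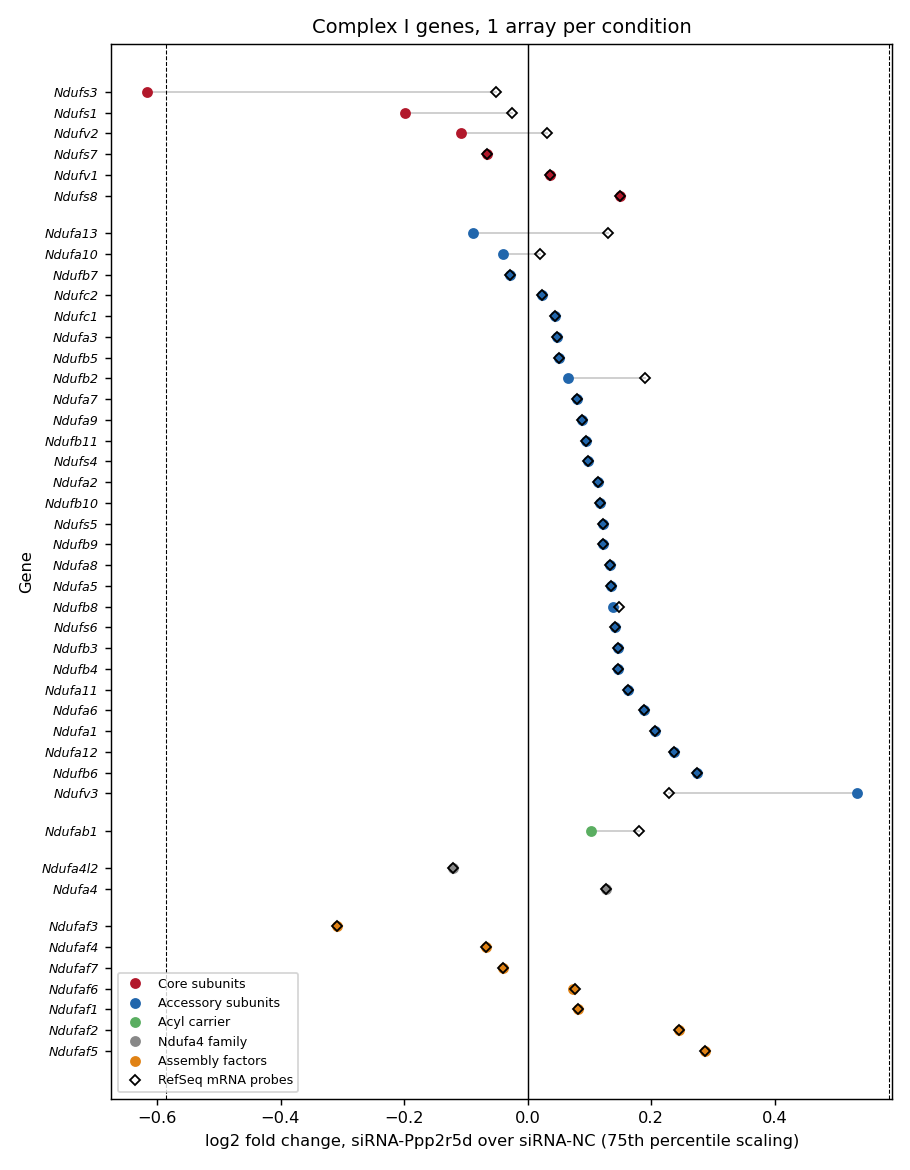
Log2 fold change of 44 of the 45 complex I genes, siRNA-Ppp2r5d over siRNA-NC after 75th percentile scaling, with 1 array per condition and no error bar. Filled points are means over all probes measured on both arrays, open diamonds use RefSeq mRNA probes, and dashed lines mark 1.5-fold. Filled points and diamonds lie far apart for Ndufs3 and Ndufv3, and under spike-in scaling all points move left by 0.18 or 0.22.

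The core subunits of the N module, where NADH is oxidised, came first. *Ndufv1*, which binds NADH and the flavin, had intensities of 26762 and 23994 in one probe and 4346 and 3903 in the other, on the siRNA-NC and siRNA-*Ppp2r5d* arrays. Its log2 fold change was 0.036, and its probes differed by 0.0025. *Ndufv1* was thus as near to 0 as the error between spots, although it moved to -0.055 under quantile normalization and to -0.14 under scaling to the log ratio of spike-in probes.

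*Ndufv2*, an iron-sulfur subunit beside the flavin, had 17854 and 15955 in its RefSeq mRNA probe, a log2 fold change of 0.031. A second *Ndufv2* probe had 44.7 and 33.0, a log2 fold change of -0.25, and the mean of both was -0.11. *Ndufs1*, the large subunit that carries several clusters of the electron path, had 16105 and 13845 in its RefSeq mRNA probe, a log2 fold change of -0.025. Its Ensembl transcript probe had 139 and 94.2, a log2 fold change of -0.37, and the gene mean was -0.20. In both genes the value below 0 came mainly from the dimmer probe.

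In the Q module, where electrons reach ubiquinone, *Ndufs7*, a subunit at the quinone site, had 30846 and 25791 in its 1 probe, a log2 fold change of -0.066. *Ndufs8*, a carrier of iron-sulfur clusters, had 28238 and 27399, a log2 fold change of 0.15 that turned to -0.028 when arrays were scaled to the log ratio of spike-in probes. *Ndufs7* was below 0 in all 8 scalings and corrections compared, down to -0.29. *Ndufs7* and *Ndufs8* thus had values on both sides of 0 within 1 module.

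*Ndufs3*, an early scaffold of the Q module, held the single call past 1.5-fold, at 1.53-fold lower, and this call belonged to 1 of its 2 probes. The RefSeq mRNA probe at chr2:90734793-90734852 had 20951 with siRNA-NC and 17683 after knockdown, a log2 fold change of -0.052. The Ensembl transcript probe at chr2:90744042-90744101 had 35.6 and 13.7, a log2 fold change of -1.18, and its lower value lay beside 13.5, the lowest signal called well above background on that array. The gene was at -0.62 when both probes were averaged and at -0.052 when only the RefSeq mRNA probe was used. Which transcript the dim probe reports was not analysed here.

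Over the 7 core subunits the median log2 fold change was -0.066 with all probes and 0.031 with RefSeq mRNA probes, a setting added after the data were seen. The same 2 medians over all genes were 0.026 and 0.034. Under quantile normalization and cyclic loess, with all probes, the core median was -0.14 in both, 0.15 below the median of all genes, and *Ndufs7*, with 1 bright probe, was at -0.20 under quantile normalization. The distance of the core subunits from the other genes thus depended on the probes and on the scaling.

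The accessory subunits lay closer together. Of 7 in the N module, 7 had a log2 fold change above 0, beside 54.2% of all genes, and their median was 0.14. In the brightest of 10 equal bands of genes by intensity, 84.7% were above 0 and the median was 0.16. The lowest of the 7 was *Ndufa7* at 0.080. *Ndufs4*, whose loss in mice causes a model of mitochondrial encephalopathy, had 7115 and 6662 and a log2 fold change of 0.098. *Ndufa12*, which docks the N module to the rest of the arm, had 25547 and 26335, a log2 fold change of 0.24 that stayed above 0 in all 8 settings, down to 0.016. Under quantile normalization the median of these 7 genes was 0.019, and under scaling to the log ratio of spike-in probes it was -0.036, so the shared sign depended on the scaling.

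*Ndufv3*, a small accessory subunit at the tip of the matrix arm, had the highest gene value of all, 0.53, again split between its probes. The RefSeq mRNA probe had 24780 with siRNA-NC and 25413 after knockdown, a log2 fold change of 0.23. The other probe had 34.5 and 53.9, a log2 fold change of 0.84. Both probes were brighter on the siRNA-*Ppp2r5d* array, and the difference of 0.61 between them was larger than the spot SD of 0.21 of probes this dim, which comes from 5 probes.

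Of the 2 accessory subunits of the Q module, *Ndufa5* had a log2 fold change of 0.14 and *Ndufa9*, which binds NADPH, of 0.087. Of 19 accessory subunits of the membrane arm, 16 were above 0, beside 54.2% of all genes, and their median was 0.12. This median turned to -0.0031 under quantile normalization, -0.011 under cyclic loess and -0.060 under scaling to the log ratio of spike-in probes. The highest of the 19 was *Ndufb6*, with 18469 and 19552 and a log2 fold change of 0.27. It kept a value above 0 in all 8 settings, as *Ndufa12* and *Ndufv3* did.

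*Ndufb8*, a membrane subunit that is lost when the complex is not assembled and is often probed in blots, had 33619 and 32583 in its RefSeq mRNA probe and 542 and 518 in another. Its log2 fold change was 0.14 and its probes differed by 0.020. *Ndufb8* thus had a small value above 0 in both probes, which turned to -0.040 when arrays were scaled to the log ratio of spike-in probes. *Ndufb2* had 17037 and 17007 in its RefSeq mRNA probe and 20968 and 20891 in an Ensembl transcript probe, a log2 fold change of 0.19 in each. A dim Ensembl transcript probe had 68.1 and 52.5, a log2 fold change of -0.18, and the mean of the 3 *Ndufb2* probes was 0.065.

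*Ndufa13*, also known as GRIM-19, was the lowest accessory subunit at -0.089, from probes that went apart. The RefSeq mRNA probe had 70984 and 67945, a log2 fold change of 0.13, and the Ensembl transcript probe had 475 and 336, a log2 fold change of -0.31. The scanner files describe the second probe as another gene product, a protein with a YjeF N-terminal domain, although they name it *Ndufa13*. *Ndufa10* at -0.040 and *Ndufb7* at -0.028 were the other 2 membrane subunits below 0, and with RefSeq mRNA probes *Ndufa10* was at 0.020.

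*Ndufab1*, the mitochondrial acyl carrier protein that also serves fatty acid and lipoic acid synthesis, had a log2 fold change of 0.10. Its Ensembl transcript probe had 23423 and 20852, a log2 fold change of 0.025. The RefSeq mRNA probe of *Ndufab1* had 906 and 898, a log2 fold change of 0.18. The gene value turned to -0.074 under scaling to the log ratio of spike-in probes. *Ndufa4*, now counted with complex IV, had 22218 and 21234, a log2 fold change of 0.13 before and 0 after quantile normalization. Its paralog *Ndufa4l2*, known as a hypoxia-induced gene, had 123 and 99.2, a log2 fold change of -0.12, and a second *Ndufa4l2* probe was above background on neither array. *Ndufa4l2* was below 0 in all 8 settings, between -0.34 and -0.022.

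The assembly factors had a wider middle 50% than the 36 subunits and a narrower one than all genes. The middle 50% of the 7 *Ndufaf* genes ran from -0.053 to 0.16 and that of the 36 subunits from 0.042 to 0.15. Their medians were 0.074 and 0.11. The middle 50% ran from -0.15 to 0.093 for the core subunits and from -0.15 to 0.18 for all genes. With RefSeq mRNA probes it was narrower for the core subunits, -0.039 to 0.093, than for the assembly factors, -0.053 to 0.16. Under quantile normalization it was slightly narrower too, -0.21 to -0.016 beside -0.068 to 0.14. The order of these 2 groups thus depended on the setting. The full range was -0.31 to 0.29 for the *Ndufaf* genes and -0.62 to 0.53 for the 36 subunits. Of the 7 *Ndufaf* genes 4 were above 0 and of the 36 subunits 29, beside 54.2% of all genes. Neither group had a replicate, so the difference of 0.035 between the medians was not tested. It turned to -0.062 under quantile normalization, -0.063 in the deposited log2 values and -0.047 under cyclic loess. Scaling to the spike-in probes shifts all genes alike, so that scaling could not change the 0.035.

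*Ndufaf3* and *Ndufaf4* encode partners that act together on the Q module. *Ndufaf3* had 568 with siRNA-NC and 401 after knockdown in the probe printed above, a log2 fold change of -0.31. It had the lowest value of the 45 members when RefSeq mRNA probes were used, and was below 0 in all 8 settings, between -0.53 and -0.25. *Ndufaf4* had 1108 and 926, a log2 fold change of -0.067 that was also below 0 in all 8 settings.

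*Ndufaf5* and *Ndufaf7* modify core subunits of the Q module, and *Ndufaf5* acts on an arginine of Ndufs7. *Ndufaf5* had 1129 and 1107 in the printed probe, a log2 fold change of 0.17, and 104 and 121 in a second RefSeq mRNA probe, a log2 fold change of 0.41. Another *Ndufaf5* probe was above background on neither array, and the gene value of 0.29 was the highest of the group. The gene value stayed above 0 in all 8 settings, between 0.067 and 0.31, while the printed probe was slightly dimmer on the siRNA-*Ppp2r5d* array before scaling.

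*Ndufaf7* had 3309 and 2819 in one probe and 1272 and 1083 in the other, a log2 fold change of -0.039, and its probes differed by 0.0011. *Ndufaf2*, a paralog of *Ndufa12* that acts late in the assembly of the N module, had 3242 and 3363, a log2 fold change of 0.25 that stayed above 0 in all 8 settings, down to 0.025. *Ndufaf2* and *Ndufa12* had nearly the same value, 0.25 and 0.24.

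*Ndufaf1*, which joins the complex that builds the membrane arm, had 1986 and 1838, a log2 fold change of 0.081. *Ndufaf6*, needed for the first steps of the membrane arm, had 1581 and 1458 in its RefSeq mRNA probe and 455 and 419 in an Ensembl transcript probe, with a log2 fold change of 0.074. Another *Ndufaf6* probe, with 11.4 and 13.9, was called above background on the siRNA-*Ppp2r5d* array alone. Both genes lay within 0.1 of the median of all genes, and both turned below 0, to -0.096 and -0.10, under scaling to the log ratio of spike-in probes.

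The choice of between-array scaling decided the sign of most members. Before scaling, 38 of 45 genes were dimmer and 7 brighter on the siRNA-*Ppp2r5d* array, with a median log2 ratio of -0.095, and the median over all genes was -0.17. The intensity at the 75th percentile was 593 with siRNA-NC and 519 after knockdown, so that the main scaling added 0.19 to every log2 ratio. The 10 spike-in probes, which report RNA added in the laboratory, had a median log2 ratio of -0.015 before scaling, and 8 of them that were well above background lay between -0.039 and 0.063.

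When the arrays were scaled to the log ratio of the spike-in probes, the median of all genes was -0.15, that of the subunits -0.069 and that of the assembly factors -0.10. With the median signal of the spike-in probes these 3 medians were -0.19, -0.11 and -0.15. Above 0 were then 8 and 6 of 45 members, beside 25.9% and 19.9% of all genes. Relative to the median of all genes, the members stood 0.072 above it under each scaling that shifts all probes alike, the subunits 0.082 and the assembly factors 0.048.

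Scalings that bend with intensity removed that distance. Under quantile normalization the subunits had a median of 0.00058, 0.013 below that of all genes, and under cyclic loess of -0.0031. The deposited log2 values, which matched a quantile normalization of the intensities with a median absolute difference of 1.4e-05, gave 0.0017. Above 0 were 22, 22 and 24 of 45 members, beside 52.7%, 50.9% and 52.7% of all genes. The assembly factors kept medians of 0.063, 0.044 and 0.064 under these settings.

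**Figure D2:**
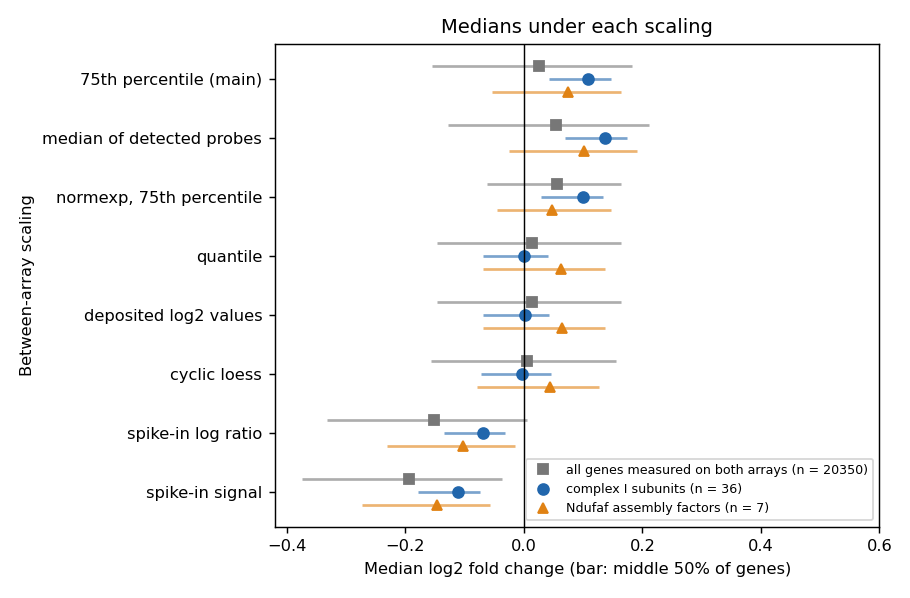
Median log2 fold change of all genes, complex I subunits and Ndufaf assembly factors under 8 between-array scalings and corrections, with bars for the middle 50% of genes and not for replicate error. The subunit median runs from 0.14 with the median of detected probes to -0.11 with the spike-in signal and lies beside 0 under quantile and loess scaling.

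Of 45 members, 6 were above 0 and 10 below 0 in all 8 settings, and the sign of 29, or 64.4%, depended on the setting. Over all genes 46.0% depended on it. Among the 36 subunits 26 did, and among the 7 assembly factors 2 did. Among the 6 were *Ndufv3*, *Ndufa12*, *Ndufb6*, *Ndufaf2* and *Ndufaf5*. The 10 were *Ndufs1*, *Ndufs3*, *Ndufs7*, *Ndufa10*, *Ndufa13*, *Ndufb7*, *Ndufa4l2*, *Ndufaf3*, *Ndufaf4* and *Ndufaf7*, of which *Ndufa10* and *Ndufa13* were above 0 with RefSeq mRNA probes. The 8 settings share the same 2 arrays and are no replicates.

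The distance between members and all genes moved with intensity. Genes measured on both arrays were put in 10 bands of equal size by mean intensity, and under the main scaling the band medians ran from -0.045 in band 3 to 0.16 in the brightest. The brightest band held 22 of 45 members, 21 of them subunits, and no assembly factor. In that band 20 of 22 members were above 0, beside 84.7% of its genes, and the median was 0.12 for the members and 0.16 for the band. Of the 22, 4 were above the median of the band. In the next band, with 11 members, the medians were 0.10 and 0.076. In the brightest band most members thus lay below the median of equally bright genes, and in the next band 8 of 11 lay above it.

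**Figure D3:**
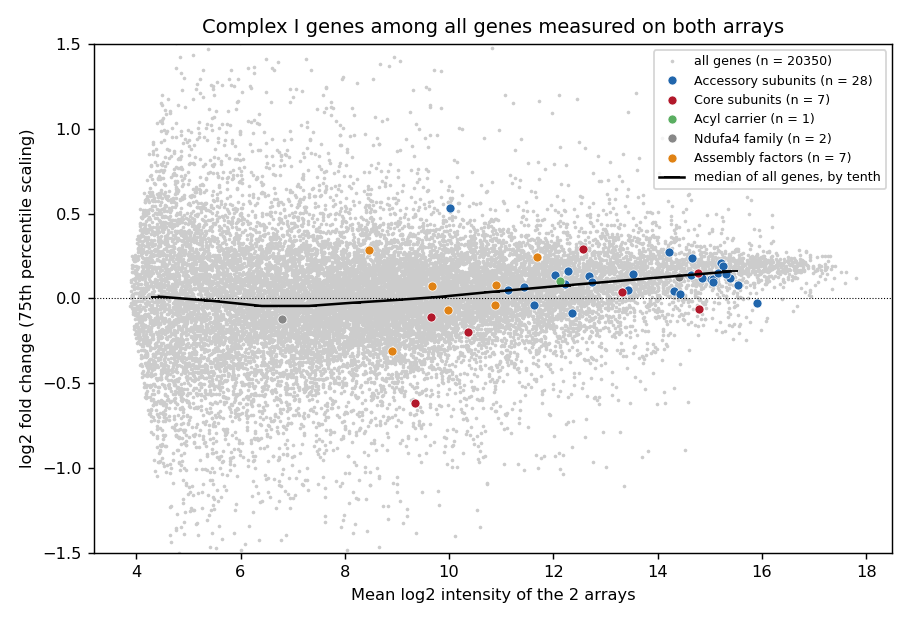
Log2 fold change after 75th percentile scaling against mean log2 intensity for 20350 genes in grey, 1 array per condition, with complex I genes coloured by role and the black line joining the medians of 10 bands of equal size. Most subunits lie at the right along the rising line, the assembly factors lie at lower intensity, and 88 grey genes fall outside the axis of 1.5 in either direction.

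The spread of the members lay mostly in dim probes. Of 70 probes, 65 were well above background on both arrays, 1 on 1 array and 4 on neither. The 51 probes with an intensity above 1000 on the siRNA-NC array had an SD of 0.092 in log2 fold change and ran from -0.067 to 0.31. The 14 dimmer probes had an SD of 0.45 and ran from -1.18 to 0.84. Both probes past 1.5-fold, of *Ndufs3* and *Ndufv3*, were among the dimmer 14.

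By accession, the 52 RefSeq mRNA probes had a median of 0.11 and 10 Ensembl transcript probes of -0.067. Over all probes of the array these medians were 0.037 and -0.0068. With RefSeq mRNA probes alone, 0 of 45 members were past 1.5-fold, beside 9.21% of 13892 genes, 37 were above 0, beside 56.1% of genes, and the lowest was *Ndufaf3* at -0.31. In *Ndufs3*, *Ndufs1*, *Ndufa13*, *Ndufb2* and *Ndufv3*, 5 of 17 genes with several measured probes, the probes differed by more than 0.3.

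**Figure D4:**
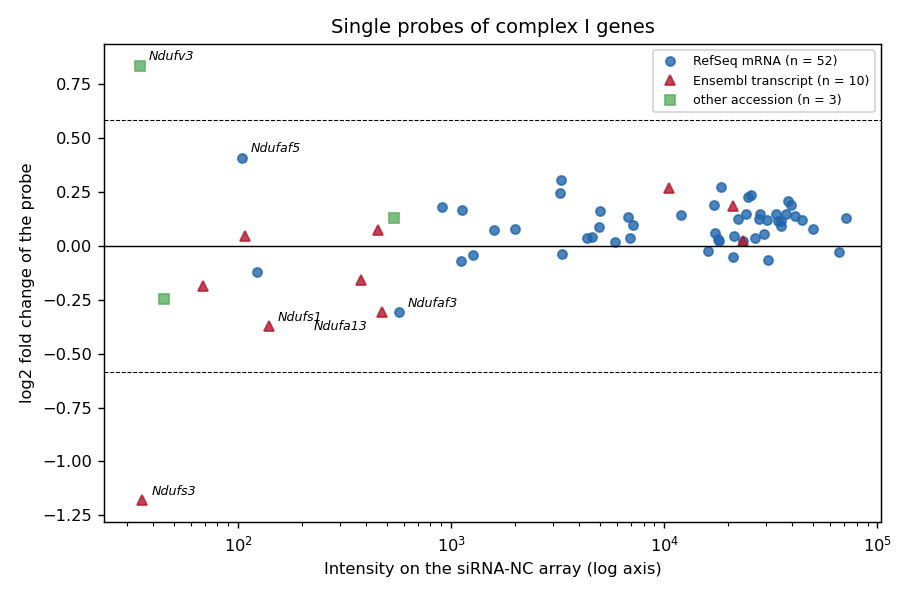
Log2 fold change of 65 single probes of complex I genes against their intensity on the siRNA-NC array (log axis), by the accession of the probe; dashed lines mark 1.5-fold. Probes above an intensity of 1000 stay between -0.067 and 0.31, and the probes past 1.5-fold belong to Ndufs3 and Ndufv3 at intensities of 35.6 and 34.5.

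Complex I genes with other array names were set beside the members. The 7 subunits encoded by mitochondrial DNA, which form the proton-pumping core of the membrane arm, had a median log2 fold change of 0.16, with *ND5* highest at 0.30 and *ND6* lowest at -0.0043. This median was 0.0059 under quantile normalization and -0.022 under scaling to the log ratio of spike-in probes. Of 9 assembly factors with other names, 5 were above 0 and 0 were past 1.5-fold, beside 54.2% and 9.27% of all genes. The lowest was *Acad9*, a partner of *Ndufaf1*, with a geometric mean intensity over 4 probes of 1419 and 1080 and a log2 fold change of -0.20, which was -0.022 with RefSeq mRNA probes, -0.0029 with probes at least 4 times the lowest signal well above background and 0.036 with its brightest probe. The highest of these 9 was *Aifm1* at 0.21. The gene that RefSeq calls *Ndufaf8* is on the array as *1810043H04Rik* and had 1038 and 1029, a log2 fold change of 0.18. The assembly factor *Dmac1* is there as *Tmem261* and had 3659 and 3982, a log2 fold change of 0.31. This value was 0.27 under quantile normalization and 0.14 under scaling to the log ratio of spike-in probes.

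Medians of the other respiratory complexes were of the same size. The median log2 fold change was 0.056 over 4 genes of complex II, 0.11 over 9 of complex III, 0.16 over 14 of complex IV and 0.063 over 15 of complex V. Over these 42 genes the median was 0.11, which turned to -0.015 under quantile normalization and -0.069 under scaling to the log ratio of spike-in probes, beside 0.11, 0.00058 and -0.069 for the complex I subunits. Of these 42 genes 1 was past 1.5-fold, beside 9.27% of all genes. It was *Cox6a2* of complex IV at -0.71, which was lower than any complex I gene. The highest were *Cox8b* at 0.51 and *Atp5d* at 0.49. *Cox8b* was dim, with 85.6 and 106 in its 1 probe. *Atp5d* had geometric mean intensities over 2 probes of 584 and 719. In the main, quantile and spike-in settings the subunits of complex I and of the other complexes had medians within 0.02 of each other.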

How the data were processed

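Each of the siRNA-NC and siRNA-*Ppp2r5d* cultures gave 1 sample for a one-colour array, and groups follow the labels. The authors deposited spot intensities from Agilent Feature Extraction 10.7.1.1, which are background-corrected within an array and carry no scaling between arrays. A second deposited file holds log2 values, whose normalization is not given in the sources used here.

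Control spots and spots marked as feature outliers (126 and 95) were left out, log2 intensities were averaged over the spots of a probe, and each array was set to its 75th percentile. Probes well above background on both arrays were averaged within a gene, and a gene above background on a single array was kept as a bound. The calling threshold was 1.5-fold, with 2-fold and 4-fold as alternatives. Other alternatives were quantile normalization, cyclic loess, the median of detected probes, 2 scalings to 10 spike-in probes, normexp with an offset of 50, the deposited log2 values, no filter or a filter of 4 times the lowest signal well above background on dim probes, outlier spots kept, and the brightest probe of a gene. RefSeq mRNA probes alone were added after the data were seen.

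The members and gene lists were chosen with earlier results of these data known. Genes named were the core subunits, *Ndufv1*, *Ndufb8*, *Ndufa13*, *Ndufab1*, the *Ndufa4* family, all *Ndufaf* genes, the 4 highest and 4 lowest members, members past 1.5-fold, members whose probes differed by over 0.3, and the highest and lowest of the complex I genes with other names. Of the genes under this rule, 1 is not reported here. Any further gene was picked with its values in view. There is no test, because a single array per condition shows no spread between cultures, and the number of arrays limits the precision. The gene steps were tested on simulated data. Positions are those of build mm9 in the files, and RefSeq tables of GRCm38 were used for names. limma 3.58.1 in R 4.3.3 did the normalizations, and pandas 2.3.3 in Python 3.11.15 the rest.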

Additional observations from a re-analysis of the deposited data

How the results depend on the processing

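No paired analysis was possible because each condition had 1 array, and no replicate could be left out. Under quantile normalization, cyclic loess, the deposited log2 values, the spike-in log ratio and the spike-in signal, the median log2 fold change was 0, -0.0028, 0.0021, -0.080 and -0.12 for the members, against 0.098 in the main setting, and 0.00058, -0.0031, 0.0017, -0.069 and -0.11 for the subunits. The median of the assembly factors moved under the spike-in log ratio and signal, to -0.10 and -0.15. Subunits minus assembly factors moved to -0.062 under quantile normalization, -0.047 under loess and -0.063 in the deposited values. The number of members above 0 moved to 22 under quantile normalization and loess, 8 with the spike-in log ratio and 6 with the spike-in signal. The number past 1.5-fold was 0 after normexp, with probes at least 4 times the lowest signal well above background, with the brightest probe and with RefSeq mRNA probes, and at thresholds of 2-fold and 4-fold. *Ppp2r5d* moved to -2.83 with the spike-in signal, -2.78 with the spike-in log ratio and -2.49 after normexp. Of 24 named genes, 8 changed sign under each spike-in scaling and 3 with the brightest probe, 1 each changed it under quantile normalization, loess, the deposited values, normexp and the stricter filter, and 2 of 23 did with RefSeq mRNA probes. *Ndufs3*, the 1 named member past 1.5-fold, stayed below 0 in all of them. The spike-in signal is the median over all 10 spike-in probes, of which 8 were detected on both arrays. The cause of the offset between the scalings was not tested.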

Other observations

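Regulators of genes for mitochondria, in the nucleus or in mitochondrial DNA, were a group not described above. Of 8 on the array, all were measured on both arrays, 2 had a log2 fold change above 0 and 0 were past 1.5-fold, beside 54.2% and 9.27% of all genes. Their median was -0.044, which was -0.039 under quantile normalization and -0.22 under scaling to the log ratio of spike-in probes. The lowest was *Ppargc1b*, a coactivator of mitochondrial genes, with geometric mean intensities over 2 probes of 673 and 497 and a log2 fold change of -0.24. The highest was *Tfam*, which packages mitochondrial DNA and helps to start its transcription, with 2831 and 2984 and a log2 fold change of 0.27. *Polrmt* at 0.023 and *Tfb2m* at -0.082 also act on mitochondrial DNA. All the other genes of the group were below 0. *Ppargc1a* had 31.2 and 26.4, a log2 fold change of -0.051, in the 1 of its 2 probes that was above background on both arrays. *Nrf1*, a transcription factor that binds promoters of many respiratory genes, had a log2 fold change of -0.19. Of 76 measured genes of the mitochondrial ribosome, named *Mrpl* or *Mrps*, 54 were above 0, beside 54.2% of all genes. Their median was 0.079, which was 0.020 under quantile normalization and -0.098 under scaling to the log ratio of spike-in probes.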
